A study of Sus scrofa with 12 samples.

Results

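The endothelin system comprises 7 genes, which were the rows of the deposited gene table named EDN1, EDN2, EDN3, EDNRA, EDNRB, ECE1 and ECE2, out of 20674 genes in all. Endothelins are short vasoactive peptides. They are cut from precursor proteins first by furin-type convertases and then by the endothelin-converting enzymes, which are membrane-bound metalloproteases encoded by ECE1 and ECE2. EDN1 encodes the peptide made by vascular endothelium and known as a strong constrictor of blood vessels, EDN2 a close relative, and EDN3 the peptide best known for its role in neural crest cells. Signals pass through 2 G protein-coupled receptors. EDNRA on smooth muscle favors the EDN1 and EDN2 peptides and drives contraction, while EDNRB binds all 3 peptides, is found on endothelium among other cells, where it releases nitric oxide, and removes endothelin from the circulation.

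The RNA came from the endometrium, the lining of the uterus, of Landrace × Yorkshire sows, and each library was assigned to its group by the code in its title. L − N received a low-fiber (LF) diet with 3.73% crude fiber and no N-carbamylglutamate (NCG), and L + N the LF diet with 0.05% NCG. H − N received a high-fiber (HF) diet with 7.46% crude fiber and no NCG, and H + N the HF diet with 0.05% NCG. NCG is an analog of N-acetylglutamate that activates arginine synthesis, and all 4 groups were fed for the 114 days of gestation. Each group had 3 libraries, 12 in all. The labels do not say that the libraries of a group came from different sows, so p-values measure the spread between these libraries. As the tissue was sequenced in bulk, fewer cells of a type and less RNA per cell cannot be told apart.

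Of the 20674 genes, 15351 had enough reads to be tested, among them all members except EDN2. The total count was 14369781 to 19309724 per library, with a median of 16224088. Levels are given as CPM, read counts scaled to a common library size after normalization, and as FPKM, which also divides by transcript length and therefore allows genes to be compared with each other. Tests are edgeR quasi-likelihood tests over all 15351 genes with Benjamini-Hochberg adjustment, and a gene was called at an adjusted p under 0.05. EDN1 was taken up because it was lower with NCG and with fiber, so its levels are described without a test, apart from the interaction. Uterine markers were present, with the epithelial gene EPCAM at group means of 216.1 to 318.9 CPM and the stromal gene DCN at 2456 to 3305 CPM. The trophoblast gene CYP19A3 was at 0 in every group but L − N, where it averaged 0.17 CPM. Other listed trophoblast markers had group means of 0.265 to 0.389 CPM (DLX3), 1.64 to 2.29 CPM (HSD17B1) and 5.1 to 6.1 CPM (GATA3). TFAP2C was at 3.32 to 6.82 CPM and GATA2 at 96.2 to 165.1 CPM. Whether placental cells were present was not tested.

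Per transcript length, the converting enzyme ECE1 was the most abundant member, with a mean of 62.5 FPKM over the 12 libraries and a higher level than 94% of the tested genes. The receptors followed, EDNRA with 20.2 FPKM and EDNRB with 14.1 FPKM. EDN1 was the main ligand with 13.0 FPKM, and EDN3 had 3.53 FPKM. ECE2, the lesser converting enzyme, had 1.20 FPKM. EDN2 was close to absent, with 0.216 FPKM and 1 to 8 reads in each library, 52 reads in total. Reads of every member were thus found in every library, and nearly all ligand reads came from EDN1 and EDN3.

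EDN1 lies on chromosome 7 of the Sscrofa11.1 assembly (8752018 to 8758354, plus strand, gene ID 396915). In L − N its 3 libraries measured 40.5, 41.8 and 42.5 CPM. In L + N they measured 18.2, 26.0 and 17.1 CPM. In H − N they measured 23.2, 22.4 and 21.6 CPM, and in H + N 13.2, 12.2 and 11.7 CPM. Every L − N library lay above all 9 others, and every H + N library lay below all 9 others, whereas L + N and H − N overlapped. EDN1 was chosen on these values, and the share of tested genes with this order was not computed.

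The mean EDN1 level was highest in L − N with 41.6 ± 1.02 CPM, followed by H − N with 22.4 ± 0.787 CPM, L + N with 20.4 ± 4.87 CPM and H + N with 12.4 ± 0.748 CPM (SD, n = 3 each). Of these neighbors, only H − N and L + N differed by less than the spread between libraries. With NCG, EDN1 was lower by a log2 difference of −1.02 on the LF diet and of −0.86 on the HF diet, or −0.94 on average. With fiber, it was lower by a log2 difference of −0.89 without NCG and of −0.72 with NCG, or −0.81 on average. The combined change from L − N to H + N was −1.75 on the log2 scale, a level 0.298 times that of L − N. In each of the 5 comparisons of single groups the EDN1 libraries did not overlap, a pattern that 17.2% of tested genes had as lower with NCG on the LF diet and 5.13% on the HF diet, that 12.7% had as lower with fiber without NCG and 5.09% with NCG, and that 12.7% had from L − N to H + N. These values chose the gene and are given as a description.

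Whether NCG acted differently on EDN1 under the 2 diets is a question that the choice of the gene did not settle. The interaction, the log2 effect of NCG on the HF diet minus that on the LF diet, was 0.17 (SE 0.221, 95% interval −0.32 to 0.65, adjusted p = 0.767 by the edgeR quasi-likelihood test). The interval covers 0 and an EDN1 response on the HF diet that is smaller or somewhat larger than on the LF diet. The L + N library of replicate 2, with 26.0 CPM, moved these values most. Without it the log2 difference with NCG on the LF diet was −1.23 and that with fiber in the presence of NCG was −0.52.

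**Figure D1:**
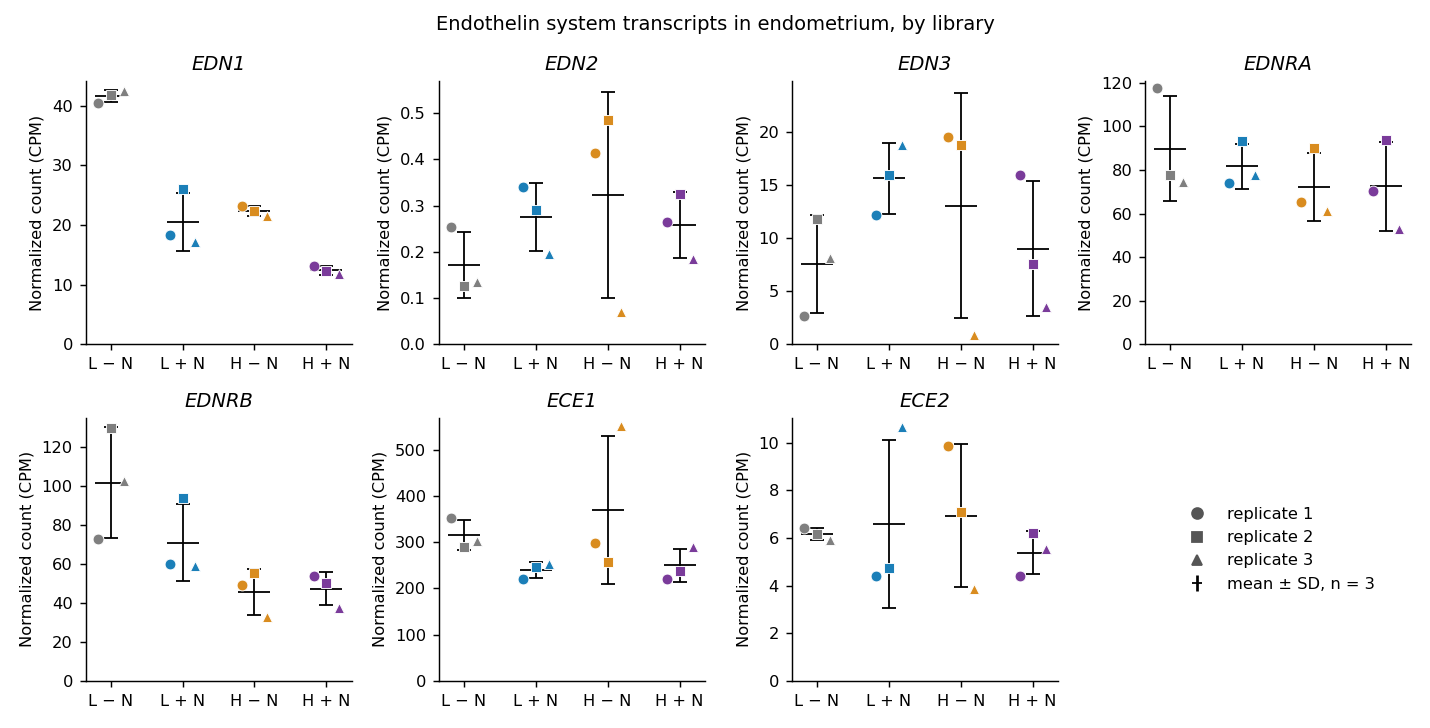
Normalized count (CPM, linear axis from 0) of each of the 7 genes in every library by group, with circles, squares and triangles for replicates 1, 2 and 3 and bars for the mean ± SD of 3 libraries. EDN1 falls from 40.5 to 42.5 CPM in L − N to 11.7 to 13.2 CPM in H + N, and the EDNRB libraries on the HF diet lie at or below 55.3 CPM, under all libraries on the LF diet.

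EDN3 lies on chromosome 17 (59418667 to 59448382, plus strand, gene ID 100049663). It varied most among the members, from 12 to 378 reads per library. It measured 2.67, 11.9 and 8.13 CPM in L − N and 12.2, 16.0 and 18.8 CPM in L + N. It measured 19.6, 18.8 and 0.828 CPM in H − N and 16.0, 7.61 and 3.49 CPM in H + N. The lowest library, H − N replicate 3, shared its group with the highest, and the pooled coefficient of variation within groups was 62.7%.

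Neither factor changed EDN3 beyond this spread. The log2 difference was 0.25 with NCG (SE 0.601, adjusted p = 0.83) and −0.00 with fiber (SE 0.622, adjusted p = 0.999), and the intervals, −1.06 to 1.57 and −1.37 to 1.36, admit changes of more than 2-fold either way. On the LF diet all 3 NCG libraries were above the 3 libraries without NCG, a pattern that 18% of the tested genes had in the same direction, and the difference of 1.05 on the log2 scale did not pass (adjusted p = 0.456). Its interaction was −1.59 (SE 1.21, 95% interval −4.25 to 1.06, adjusted p = 0.593).

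EDN2, on chromosome 6 (169751956 to 169758011, plus strand, gene ID 102157561), had 2 to 7 reads in the libraries of the LF diet and 1 to 8 in those of the HF diet. It was not tested, and a difference between the groups was not detectable at this depth.

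The makeup of the ligand transcripts followed from these levels. On the LF diet, EDN1 made up 90.4% ± 4.86 (SD, n = 3) of the summed ligand FPKM without NCG and 68.5% ± 6.62 with NCG. On the HF diet its share was 76.7% ± 17.9 without and 71.3% ± 12.8 with NCG. In L + N no library reached the lowest L − N share of 85.8%. In H − N the share was 66.4% in replicates 1 and 2 but 97.4% in replicate 3, the library with little EDN3. The summed ligand level was 24.0 ± 1.02 FPKM in L − N and 9.73 ± 2.51 FPKM in H + N, and no library of one group reached the other. This sum contains EDN1 and is not independent evidence.

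**Figure D2:**
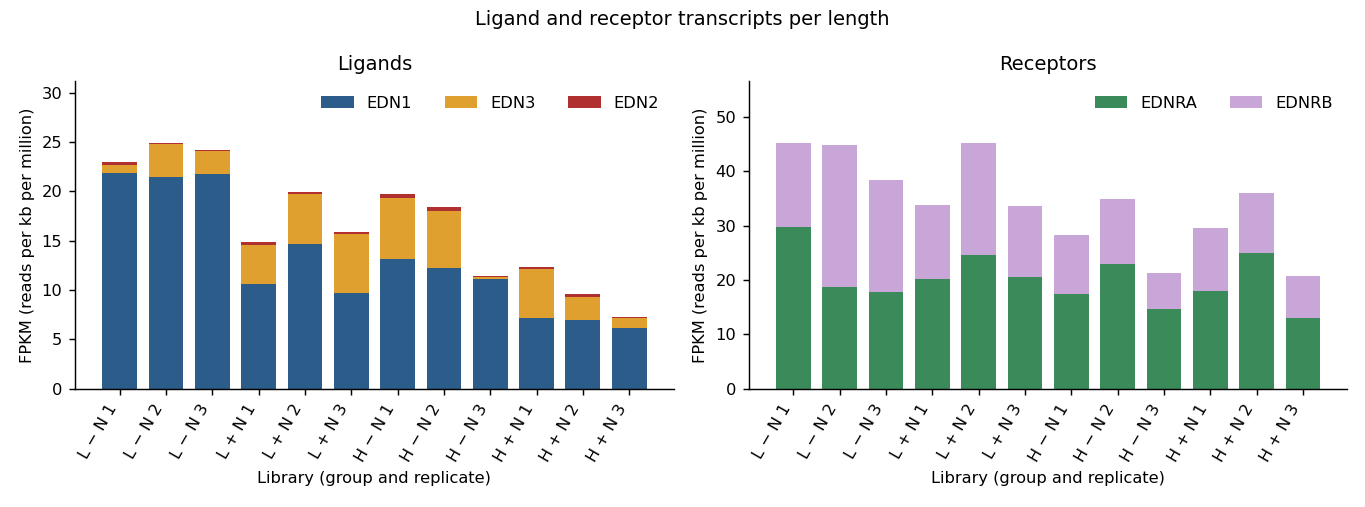
Stacked FPKM (reads scaled by transcript length and library size, linear axis from 0) of the ligands EDN1, EDN3 and EDN2 on the left and of the receptors EDNRA and EDNRB on the right, one bar per library. The ligand total is 22.9 to 24.9 FPKM in L − N and 7.28 to 12.3 FPKM in H + N, and EDN2 is barely visible in any library.

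EDNRB, the receptor of all 3 peptides, had the largest fiber difference among the 5 members that were tested besides EDN1. It lies on chromosome 11 (50073300 to 50102879, minus strand, gene ID 414911). It measured 72.9, 129.8 and 102.7 CPM in L − N and 60.1, 93.8 and 58.9 CPM in L + N. On the HF diet it measured 49.4, 55.3 and 32.7 CPM in H − N and 53.8, 50.5 and 37.6 CPM in H + N. All 6 HF libraries lay below all 6 LF libraries, which 0.404% of the tested genes also showed.

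Averaged over NCG, EDNRB was lower with fiber by a log2 difference of −0.87 (SE 0.189, 95% interval −1.28 to −0.45), with means of 46.6 CPM on the HF diet and 86.4 CPM on the LF diet. The adjusted p of 0.069 by the edgeR quasi-likelihood test missed the threshold (unadjusted p = 0.000734), so 0 of the 5 members were called for fiber, where 0.0521% of all tested genes were called. At an unadjusted p under 0.05 there was 1 of 5, beside 19.5% of all tested genes. DESeq2, the tool that the study used, called EDNRB for fiber (adjusted p = 0.00156, 1 of 5 members), but it called 1093 genes in all, 6.73% of those with an adjusted p, where edgeR called 8. Without L − N replicate 1 edgeR also called EDNRB (adjusted p = 0.0122), together with 6.99% of all genes tested in that fit (1088 genes).

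In the comparisons of single groups, EDNRB was the only one of the 5 members called, and it was called in 2. In H − N it was lower than in L − N, with a log2 difference of −1.15 (SE 0.269, 95% interval −1.74 to −0.56, adjusted p = 0.0369), in a comparison where 5.27% of tested genes were called. In H + N it was lower than in L − N, with a log2 difference of −1.11 (SE 0.269, 95% interval −1.70 to −0.52, adjusted p = 0.0337), where 7.97% were called. Both comparisons share the L − N libraries. The first call was lost when any 1 of 8 of the 12 libraries was left out (L − N 2 and 3, L + N 1 and 3, H − N 1, 2 and 3, H + N 1), with adjusted p of 0.0501 to 0.126. The second was lost without any 1 of 5 libraries (L − N 2 and 3, H + N 1, 2 and 3), with adjusted p of 0.0585 to 0.11.

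In the presence of NCG the fiber difference of EDNRB was −0.58 on the log2 scale and did not pass (SE 0.267, adjusted p = 0.91), although the groups did not overlap, as for 5.09% of genes in that direction. NCG had a log2 difference of −0.52 on the LF diet (SE 0.266, adjusted p = 0.226) and of 0.05 on the HF diet (SE 0.267, adjusted p = 0.976). The interaction of 0.57 (SE 0.376, 95% interval −0.26 to 1.39, adjusted p = 0.548) did not separate the 2 diets. In order of their means, L − N with 101.8 ± 28.5 CPM, L + N with 70.9 ± 19.8, H + N with 47.3 ± 8.52 and H − N with 45.8 ± 11.7 (SD, n = 3), only L + N and H + N among neighbors had no overlapping libraries.

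EDNRA, the receptor that drives contraction, lies on chromosome 8 (81210750 to 81279053, minus strand, gene ID 397457). It measured 117.6, 77.6 and 74.4 CPM in L − N and 74.1, 93.3 and 77.6 CPM in L + N. It measured 65.5, 90.0 and 61.0 CPM in H − N and 70.6, 94.0 and 53.1 CPM in H + N. All 4 groups overlapped. The log2 difference was −0.06 with NCG (SE 0.169, 95% interval −0.44 to 0.31, adjusted p = 0.847) and −0.24 with fiber (SE 0.169, 95% interval −0.61 to 0.13, adjusted p = 0.455). A fall of EDNRA as large as that fitted for EDNRB is outside the fiber interval, but the difference between the 2 receptors was not tested.

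The ratio of EDNRA to EDNRB in FPKM gives the balance of the receptors within a library. With the LF diet it was 1.93, 0.713 and 0.864 without NCG, and 1.47, 1.19 and 1.57 with NCG. On the HF diet it was 1.58, 1.94 and 2.23 without NCG, and 1.57, 2.22 and 1.68 with NCG. EDNRB exceeded EDNRA only in L − N replicates 2 and 3. L − N replicate 1 had the highest EDNRA of all libraries, 117.6 CPM, and the lowest EDNRB of its group. In the same library the summed level of 10 smooth muscle markers was 5827 CPM, against 988.4 to 2286 CPM in the other 11, and that of 9 macrophage markers was 1371 CPM, against 3494 and 3617 CPM in the other L − N libraries. Their part in the receptor levels was not tested.

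**Figure D3:**
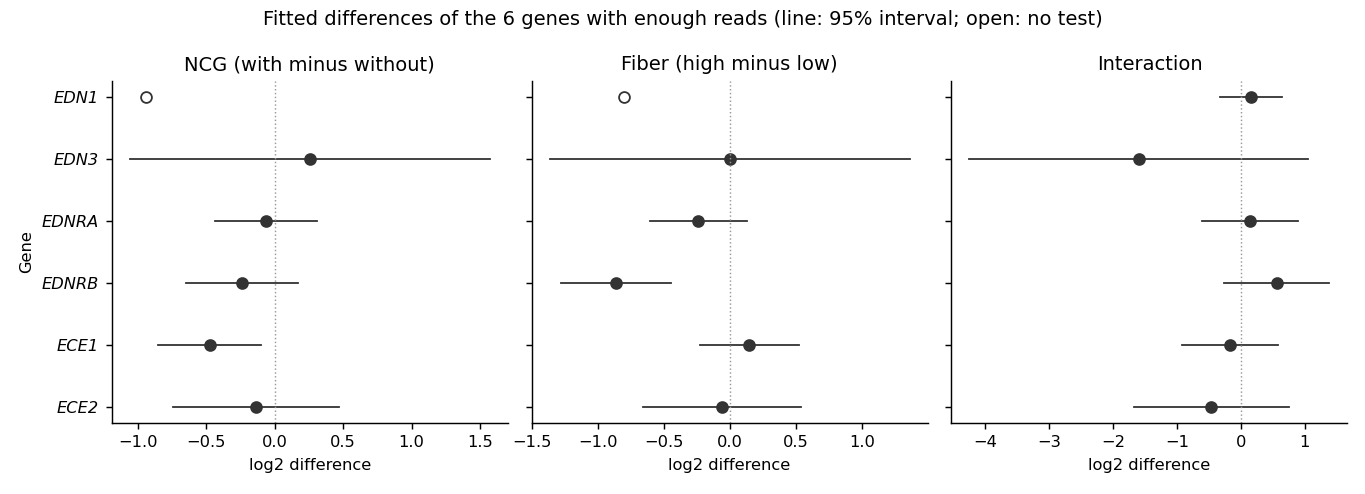
Fitted log2 differences of the 6 tested members for NCG (with minus without), fiber (high minus low) and their interaction, with 95% intervals as lines and a different axis range in each panel. EDN1 is drawn open and without an interval for NCG and fiber because it was chosen on these values, and the intervals of EDNRB for fiber (−1.28 to −0.45) and ECE1 for NCG (−0.85 to −0.10) lie below 0 before adjustment over all genes.

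ECE1, which makes the active peptides, lies on chromosome 6 (79408322 to 79465827, minus strand, gene ID 397446). It measured 351.9, 290.6 and 302.4 CPM in L − N and 221.0, 246.5 and 252.9 CPM in L + N. It measured 298.0, 256.7 and 552.3 CPM in H − N and 221.0, 238.5 and 290.7 CPM in H + N. On the LF diet the NCG libraries lay below those without NCG, as for 17.2% of tested genes in that direction, whereas on the HF diet the groups overlapped. H − N replicate 3 stood above every other library, the next of which had 351.9 CPM.

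With NCG, ECE1 had a log2 difference of −0.48 (SE 0.172, 95% interval −0.85 to −0.10). It alone of these members had an unadjusted p under 0.05 for NCG, as had 23.6% of all tested genes, and its adjusted p was 0.121 by the edgeR quasi-likelihood test. None of the 5 was called for NCG, against 7.27% of all tested genes, and DESeq2 also called 0. Without H − N replicate 3 the log2 difference was −0.27. With fiber it was 0.14 (SE 0.171, 95% interval −0.23 to 0.52, adjusted p = 0.689).

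ECE2 lies on chromosome 13 (122148928 to 122179522, plus strand, gene ID 100627224) and overlaps CAMK2N2 on the opposite strand. Whether reads were counted by strand is not given in the sources used here, but CAMK2N2 itself was at most at 0.272 CPM in every library. The KEGG entry beside ECE2 is that of a methyltransferase, and whether the row holds the protease alone was not tested. In the LF groups it measured 6.43, 6.14 and 5.91 CPM without NCG, and 4.42, 4.72 and 10.7 CPM with NCG. On the HF diet it measured 9.84, 7.07 and 3.86 CPM without NCG, and 4.42, 6.19 and 5.52 CPM with NCG. The groups overlapped in NCG and in fiber, with log2 differences of −0.14 (SE 0.276, 95% interval −0.74 to 0.47, adjusted p = 0.798) and −0.06 (SE 0.275, 95% interval −0.66 to 0.54, adjusted p = 0.936).

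In the remaining comparisons none of the 5 members was called by edgeR or by DESeq2. For NCG on the LF diet, 9.6% of tested genes were called by edgeR, and 0 of the members reached an unadjusted p under 0.05, beside 27.8% of all tested genes. For NCG on the HF diet edgeR called 0% of tested genes, and 1 member, ECE1, had an unadjusted p under 0.05 (log2 difference −0.56, adjusted p = 0.562), as had 8.67% of all. For fiber in the presence of NCG edgeR called 0% and no member had an unadjusted p under 0.05, beside 4.68% of all. The interaction was called in 0% of genes and in 0 of the 6 members including EDN1, none of which had an unadjusted p under 0.05, beside 12.8% of all.

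Pairs of members were compared over the 12 libraries on log2 CPM, which share the effects of group, depth and tissue composition. Among 15 pairs, EDN1 and EDNRB had a Pearson r of 0.732 and a Spearman correlation of 0.713, and 0.665 for the deviations from the group means. EDN1 varied most in L + N (coefficient of variation 23.8%, against 2.46% to 6.04% in the other groups). There replicate 2 was highest in both genes, with 26.0 CPM of EDN1 and 93.8 CPM of EDNRB. The correlation without this library was not computed. EDN3 and ECE1 ran opposite to each other, with r of −0.83, a Spearman correlation of −0.441 and −0.933 within groups. This rests on H − N replicate 3, with ECE1 at its highest and EDN3 at its lowest, and on L − N replicate 1, since r was −0.293 over the other 10 libraries. EDN3 and EDNRB had r of 0.416 over all libraries and 0.78 within groups. Members of the same role did not run closely together, with r of −0.0576 for EDN1 and EDN3, 0.484 for EDNRA and EDNRB and −0.183 for ECE1 and ECE2.

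Of 13589 named genes with a mean of at least 1 CPM, those with a level most like that of EDN1 over the 12 libraries were DDIT4 (r 0.94), LMO2 (0.919), TSC22D3 (0.916), ZNF518B (0.912) and CBR3 (0.909). DDIT4 is a stress-induced inhibitor of mTOR signaling, and its mean was highest in L − N with 115.9 ± 11.3 CPM, followed by H − N with 72.9 ± 5.83, L + N with 67.1 ± 6.02 and H + N with 58.2 ± 1.72 (SD, n = 3). TSC22D3, a glucocorticoid-induced regulator, had means of 127.9, 75.1, 74.3 and 58.6 CPM in the same order, with SDs of 3.55 to 15.9 CPM. Both had the highest mean in L − N and the lowest in H + N, as EDN1 did. They were picked by their r to EDN1 over these libraries, so the shared order is not independent evidence. Within groups the r to EDN1 was 0.381 for DDIT4, 0.0472 for LMO2, 0.404 for TSC22D3, 0.311 for ZNF518B and 0.674 for CBR3. Among the genes most opposite to EDN1 were LRRN3 (r −0.928), RBM23 (−0.92), CTCF (−0.913) and SETD5 (−0.908).

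The nearest genes of the receptors were listed in the same way. EDNRA was most like ASAP2 (r 0.944), ISM1 (0.915) and CDC42EP3 (0.897), and EDNRB was most like PFKFB3 (0.945), a regulator of glycolysis, SLC35G1 (0.929) and FAT1 (0.926). For these the r within groups was 0.801 to 0.973. They were picked by their r over the same libraries, so this is not independent evidence. No gene was shared between the listed nearest genes of EDN1, EDNRA and EDNRB. Only the top few of 13589 genes were listed for each, so this cannot tell whether the members vary together. EDN1 and EDNRB themselves had r of 0.732.

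The genes around the endothelin system were followed in 5 lists. Over all tested genes, 7.27% were called for NCG and 0.0521% for fiber. Among 9 tested genes of endothelin processing and breakdown, 0 were called for NCG or for fiber, and the median log2 difference was −0.18 with NCG and 0.10 with fiber, beside −0.03 and 0.02 for all tested genes. Without L − N replicate 1, 1 gene of this list was called for fiber, beside 6.99% of all genes tested in that fit. FURIN, which makes the first cut of the precursor, had log2 differences of −0.25 with NCG (adjusted p = 0.221) and −0.15 with fiber (adjusted p = 0.512). CTSA, a carboxypeptidase that degrades endothelin, had −0.91 with fiber (adjusted p = 0.0971).

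Among 34 genes of signaling downstream of the receptors, 4 rose with NCG and 0 fell, beside 7.27% of all tested genes called. The list median was −0.05. The 4 were the phospholipase PLCB4 (log2 difference 0.98, adjusted p = 0.0318), the kinases ROCK1 (0.90, adjusted p = 0.0118) and ROCK2 (0.92, adjusted p = 0.0168), which promote contraction of smooth muscle, and the cation channel TRPC1 (0.91, adjusted p = 0.00578). With fiber 1 gene of the list fell and 0 rose, beside 0.0521% of all tested genes called, with a list median of −0.12. The gene was RGS5 (−0.88, adjusted p = 0.0343), a brake on G protein signaling in vessel walls that is also a pericyte marker. The related RGS2 had −0.86 (adjusted p = 0.0576) and PLCB2 −1.20 (adjusted p = 0.0782). Leaving out 1 library gave 3 to 5 calls for NCG. For fiber, 6 genes were called without L − N replicate 1, where 6.99% of all genes tested were called. Without the second H + N library 2 were called, where 0.735% of all were. The count was 0 without any 1 of 8 libraries (L − N 2 and 3, L + N 1, 2 and 3, H − N 1 and 2, H + N 3).

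Among 25 tested regulators of EDN1 transcription, 2 fell with NCG and 0 rose, beside 7.27% of all tested genes called. The 2 were the TGF-beta receptor TGFBR2 (−0.42, adjusted p = 0.0242) and the transcription factor FOXO1 (−0.29, adjusted p = 0.0337). The list medians were −0.08 with NCG and −0.13 with fiber. For fiber 0 were called, beside 0.0521% of all tested genes. Both NCG calls were lost without any 1 of 5 libraries (L − N 2 and 3, L + N 1, 2 and 3). The NCG count was 2 or more in only 3 of the 12 leave-one-out fits. For fiber, 3 regulators were called without L − N replicate 1, where 6.99% of all genes tested were called. The ligand TGFB1 had −0.61 with fiber (adjusted p = 0.0998) and the hypoxia factor EPAS1 −0.52 with NCG (adjusted p = 0.0859).

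Among 23 tested genes of other vasoactive peptides and receptors, 1 rose and 1 fell with NCG, beside 7.27% of all tested genes called. The first was the adrenomedullin receptor component CALCRL (0.51, adjusted p = 0.0484) and the second the vasopressin receptor AVPR1A (−1.14, adjusted p = 0.0489). Adrenomedullin itself, ADM, a dilator, had −1.04 with NCG (adjusted p = 0.0518). With RLE in place of TMM normalization CALCRL missed the threshold (adjusted p = 0.0508). Neither call remained without any 1 of L − N 3, L + N 1, 2 and 3, H − N 3 and H + N 1. The NCG count stayed at 2 in only 2 of the 12 leave-one-out fits. With fiber 0 were called, or 1 without L − N replicate 1, where 6.99% of all genes tested were called. The medians were −0.02 with NCG and −0.15 with fiber. Among 7 tested genes of nitric oxide and cGMP, which oppose endothelin in vessel walls, the guanylate cyclase subunit GUCY1A2 rose with NCG (0.90, adjusted p = 0.0274) and 0 were called for fiber. The medians were 0.16 and −0.06, and no gene of the list was called for NCG without L + N replicate 2 or H + N replicate 1.

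**Figure D4:**
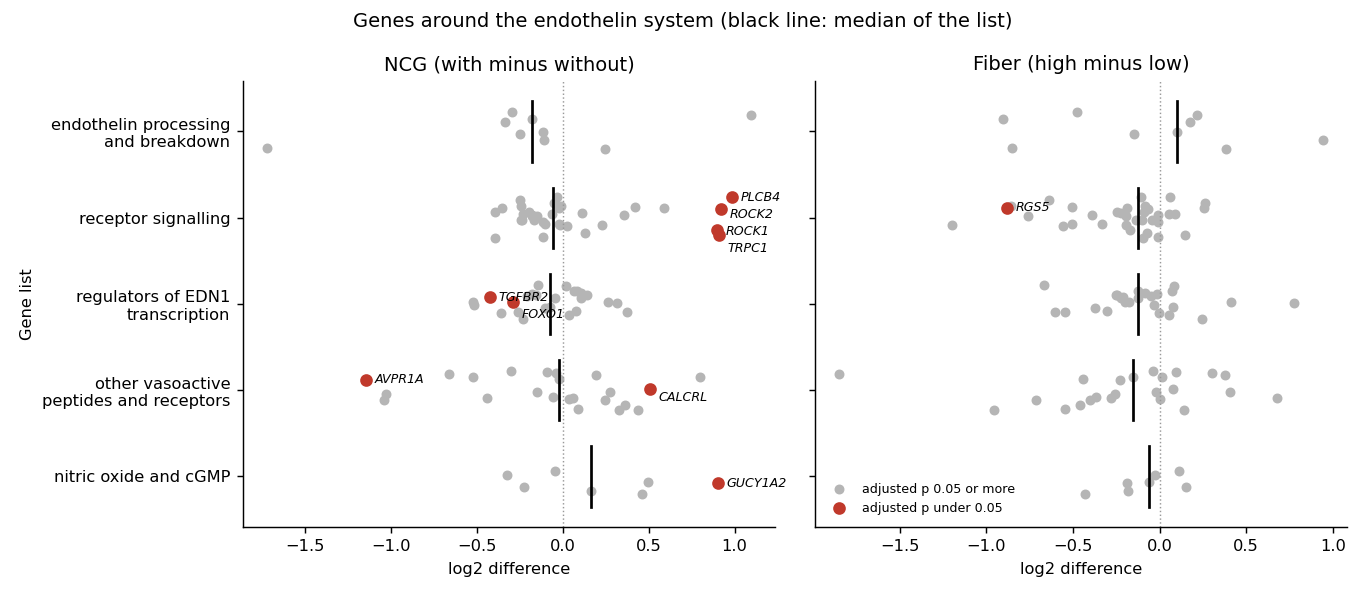
Log2 difference with NCG (left) and with fiber (right) of each tested gene in 5 lists around the endothelin system, one point per gene and a black line at the list median. Larger red points passed an adjusted p of 0.05, 9 genes for NCG, such as ROCK1 (0.90) and TGFBR2 (−0.42), and RGS5 (−0.88) for fiber. Over all tested genes, 7.27% passed for NCG and 0.0521% for fiber. Vertical position within a list has no meaning.

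Markers of the cells that make or receive endothelin moved in part with the diets. Of 15 endothelial markers, 2 fell with NCG, PECAM1 (−0.74, adjusted p = 0.0118) and PLVAP (−0.50, adjusted p = 0.0186), beside 7.27% of all tested genes, and 0 were called for fiber. The list medians were −0.19 and −0.05. The NCG count was 1 without L + N replicate 2 and 3 without H + N replicate 2, and the fiber count was 1 without L − N replicate 1. On the LF diet their summed level was 1572 to 2258 CPM without NCG and 1165 to 1406 CPM with NCG, and on the HF diet it was 1566 to 1692 CPM and 1425 to 1726 CPM. On the LF diet, the groups with and without NCG did not overlap in EDN1 or in the summed endothelial level. On the HF diet they did not overlap in EDN1 and overlapped in the summed endothelial level. EDN1 was chosen on these values, and 17.2% of tested genes were lower without overlap on the LF diet and 5.13% on the HF diet. The part of the endothelial markers in the EDN1 levels was not tested.

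Of the 9 macrophage markers, 0 were called for NCG or fiber. Without L − N replicate 1, 8 were called for fiber, beside 6.99% of all genes tested in that fit. The median log2 difference of these markers with fiber was −0.80. On the LF diet their summed level was 1371 to 3617 CPM without NCG and 1172 to 1655 CPM with NCG, and on the HF diet it was 712 to 1039 CPM and 1117 to 1407 CPM. Of the 10 smooth muscle markers and 7 pericyte markers, 1 was called for NCG or fiber, RGS5 for fiber. Over all tested genes, 7.27% were called for NCG and 0.0521% for fiber. All 10 smooth muscle markers had a negative difference with NCG and with fiber, with medians of −0.60 and −0.31. Without L − N replicate 1 these medians were −0.16 and 0.08. The pericyte medians were −0.13 with NCG and −0.15 with fiber. Of 9 stromal markers, 6 had a positive difference with fiber, with a median of 0.29, and 0 of these were called. The only one called was VIM, which was lower with fiber (−0.98, adjusted p = 0.0343), and this call was lost when any 1 of 9 libraries was left out, all except L − N 1 and 3 and H + N 2. EDNRB is also known from pigment cells and glia, and in that list of 7 tested markers 0 were called. Without L − N replicate 1, 1 was called for fiber and 1 for NCG, and 1 was called for NCG also without H − N replicate 2 or 3. Their defining gene SOX10 stayed under 1 CPM in every library. The pigment gene PMEL measured 24.0, 658.7 and 662.9 CPM in L − N, and 0.984 to 155.3 CPM in the other 9 libraries. The part of these markers in the EDNRB levels was not tested.

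**Figure D5:**
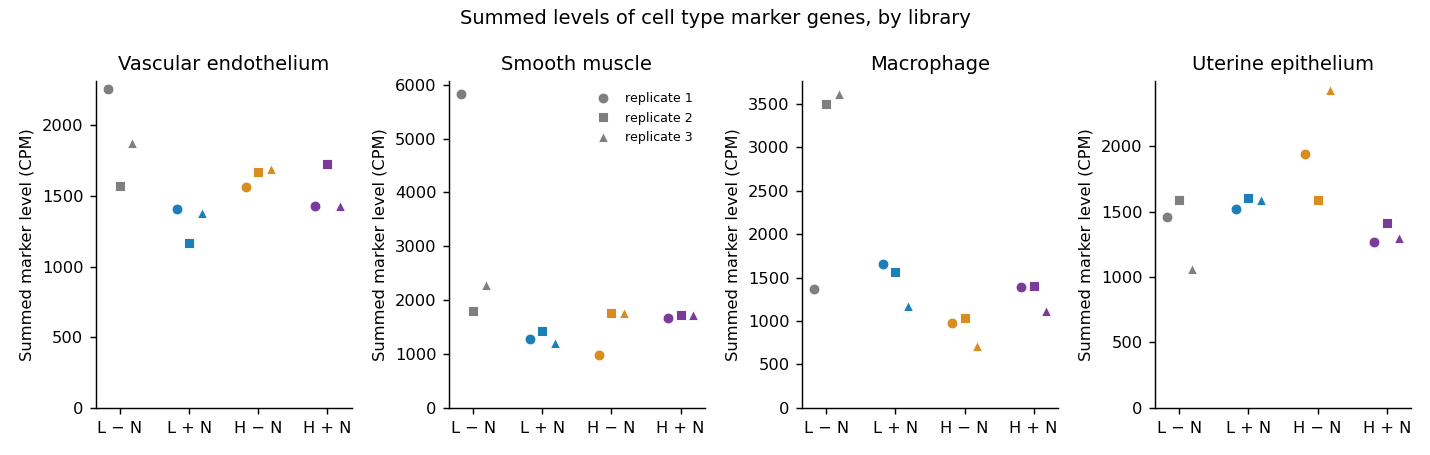
Summed CPM (linear axis from 0) of 15 endothelial, 10 smooth muscle, 9 macrophage and 9 epithelial marker genes in every library by group, with circles, squares and triangles for replicates 1, 2 and 3. L − N replicate 1 stands apart with 5827 CPM of smooth muscle markers, and L − N replicates 2 and 3 have the most macrophage markers (3494 and 3617 CPM).

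In the annotation deposited with the counts, all 5 ligands and receptors carry the KEGG pathway of neuroactive ligand-receptor interaction. All of these except EDNRB carry vascular smooth muscle contraction, renin secretion and cAMP signaling, and the converting enzymes carry no pathway.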

How the data were processed

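Poly(A) RNA of endometrium was sequenced in 12 libraries, 3 for each combination of diet and NCG. The paper describes Trizol extraction and strand-specific Illumina libraries. The submitters' processing notes name fastp 0.22.0, HISAT2 2.1.0, HTSeq 0.9.1 and Sscrofa11.1, and settings are not given in the sources used here. The authors deposited raw read counts per gene and FPKM values, which differ by at most 1.91e-05 percent from FPKM computed from the counts, gene lengths and library totals. Counts were used for all tests and FPKM only to compare genes with each other.

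Tests used edgeR 4.0.16 in R 4.3.3 (filterByExpr, TMM, one mean per group, glmQLFit and glmQLFTest with all 12 libraries) and DESeq2 1.42.0 as an alternative. Log2 CPM for correlations used a prior count of 2. NCG compares the average of both groups with NCG against both without, and fiber compares both HF groups against both LF groups. Standard errors and intervals come from the quasi-likelihood F statistic. Figures were drawn with matplotlib 3.10.9. The method was tested on simulated counts. The biological coefficient of variation was 0.269, and replicate libraries of a group differed by more than sampling noise.

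The members and lists were chosen with earlier results of these data known. The lists of endothelin processing, receptor signaling, EDN1 regulators, other vasoactive genes, nitric oxide and cell markers were written from general knowledge. Named from these are genes with an adjusted p under 0.05 and part of the 3 with the smallest p in NCG and in fiber, and of the genes most like a member the first 5 or 3, of which 1 is not reported here. Gene IDs and coordinates are those of the deposited table and match RefSeq. Deviations from the group means of libraries with the same replicate number had r of −0.322 to 0.283 in 18 pairs, 3 of them above 0.1. With 3 libraries per group this cannot exclude pairing by number, and the samples were treated as unpaired. Alternatives were RLE scaling, no filter, DESeq2, a replicate block and leaving out each library.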

Additional observations from a re-analysis of the deposited data

How the results depend on the processing

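EDN1 kept its direction in every setting, but it was chosen for this direction, so this is a description only. Leaving out 1 library gave log2 differences of −1.05 to −0.88 with NCG and −0.88 to −0.71 with fiber. For fiber, 0 members were called (EDN1 aside), but DESeq2 called 1 (with 1093 genes in all, against 8 by edgeR), and leave-one-out fits called 0 to 1, the 1 without L − N replicate 1 (with 1088 genes in all). For H − N and for H + N against L − N, 1 member was called, and leave-one-out fits called 0 to 1. In all of these the member was EDNRB. No other count of members moved. A replicate block changed no member's call: EDNRB had an adjusted p of 0.0723 for fiber, 0.0365 for H − N and 0.0295 for H + N against L − N, while the calls over all genes went from 809 to 380, from 8 to 1 and from 1223 to 730 for H − N against L − N, fiber, and H + N against L − N. Over all genes DESeq2 called 287 for the interaction, 46 for NCG on the HF diet and 2 for fiber with NCG, where edgeR called 0 (1967, 1331 and 719 at an unadjusted p under 0.05). Of 656 tested single values under other settings, 641 kept their side of the threshold, 13 lost and 2 gained a call, and 0 called values changed sign. The cause of these differences was not tested. Within-group correlations with EDN1 were lower in size than those over all libraries for the 9 genes named. With 3 libraries per group, the spread between libraries limits EDN3, and depth limits EDN2.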

Other observations

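Genes of cell division were the marker list with the most calls. Of 10 tested, 7 rose with NCG, beside 7.27% of all tested genes called, and the list had a median log2 difference of 1.12. Among the 7 were TOP2A (1.83, adjusted p = 0.00578) and MKI67 (1.13, adjusted p = 0.018) by the edgeR quasi-likelihood test. For fiber, where 0.0521% of all tested genes were called, 0 of the 10 were. On the LF diet their summed level was 128.7 to 302.9 CPM without NCG and 436.8 to 620.1 CPM with NCG, and on the HF diet it was 306.5 to 328.0 CPM and 423.7 to 614.0 CPM. Leaving out 1 library gave 5 to 8 calls. Whether these levels are linked to those of EDN1 was not tested.

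Of 9 epithelial, 4 tested trophoblast and 3 tested red blood cell markers, 0 were called for NCG or fiber by edgeR, beside 7.27% and 0.0521% of all tested genes. In the fit without L − N replicate 2, 1 red blood cell marker was called for NCG, beside 942 of 15495 genes tested. The summed red blood cell level ran from 26.5 to 753.4 CPM over the libraries.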
